A study of Mus musculus with 2931 samples.

Results

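The 9 genes described here are transcriptional targets of p53: Cdkn1a, Bax, Phlda3, Ccng1, Mdm2, Trp53inp1, Eda2r, Sesn2 and Gdf15. They were found by symbol among the 18072 genes of a table of read counts for 2931 single endothelial cells (EC) of mouse distal lung, and all 9 had reads. The members were chosen by their levels under hyperoxia: the set was put together with the hyperoxia results of these same cells at postnatal day 7 (P7) known, so the hyperoxia contrast is described below by its values and carries no test. What the choice did not use directly are the differences between subtypes in normal air, the order of ages and the distribution over single cells.

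p53 is a transcription factor that is held low in unstressed cells by the ubiquitin ligase Mdm2, itself a p53 target, and that accumulates after DNA damage and other stresses. Its targets include arrest genes such as Cdkn1a, which encodes the cyclin-dependent kinase inhibitor p21, and death genes such as Bax, which permeabilises the mitochondrial outer membrane. High oxygen damages the lung endothelium, and breathing it during the days in which alveoli form is a common animal model of injury in preterm infants.

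The cells came from 10 mouse names, 1 female and 1 male in each of 5 groups: the embryonic stage E18.5 and the postnatal days P1, P7 and P21 for mice kept in normal air, and P7 for mice under hyperoxia. The oxygen level, its duration and the strain are not given in the sources used here, nor whether a mouse name is 1 animal or a pool, so n counts mouse names and the p-values measure the spread between them. The authors gave each cell 1 of 10 subtype labels, which were used as they stand. Nonproliferative capillaries here are the cells labelled nonproliferative embryonic EC at E18.5 and early or late Car4- capillaries after birth. Cells were sorted into plates and sequenced without molecular identifiers, so counts are reads. Intervals of shares of cells cover counting error only, while those of log2 differences come from the standard error of the fit over mice.

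Cells held 42095 to 2967985 reads, with a median of 621406. Shares of cells were therefore taken after each cell had been thinned to 50000 reads, and levels are CPM, the reads of a gene scaled to 1000000 of the reads summed over a class of cells in 1 mouse. The labels matched their defining markers in most cells: Car4 was detected in 98.2% of Car4+ capillaries, Mki67 in 92.6% of proliferative EC, Gja5 in 75.3% of arterial EC I, Prox1 in 96.3% of lymphatic EC and Slc6a2 in 62.2% of venous EC. Car4 was also detected in 26.6% of the cells labelled early and 32.6% of those labelled late Car4- capillaries, and Mki67 in 36.6% of the lymphatic EC. In the nonproliferative capillaries the summed levels of epithelial, leukocyte and mesenchymal markers reached 188, 37.1 and 15.8 CPM at most, against 5529 CPM or more of pan-endothelial markers. Mesenchymal markers reached 316 CPM in the proliferative EC of 1 mouse and 143 CPM in the pooled arterial EC of 1 mouse, where leukocyte markers reached 72.7 CPM and epithelial ones 121 CPM; their part in the results was not tested. Among the CD31-sorted cells, the P1 male, the P7 female in normal air and the female under hyperoxia were each alone in their sequencing run. Run and mouse cannot be told apart there.

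The members are protein-coding genes on 8 chromosomes. On GRCm38 (GENCODE), Cdkn1a spans chr17:29090976-29100727, Phlda3 chr1:135766119-135769136 and Trp53inp1 chr4:11156431-11174379, all on the plus strand. Bax spans chr7:45461697-45466898, Ccng1 chr11:40748552-40755311, Mdm2 chr10:117688875-117710758, Eda2r chrX:97333840-97377216, Sesn2 chr4:132492032-132510501 and Gdf15 chr8:70629393-70632456 on the minus strand. Promoters of the set are shown because the members share a regulator. Of the 9 genes, 8 had an entry in the RefSeq promoter table of build GRCm38.p6, with 10 start sites in all. A decamer of the p53 half-site consensus, which is its own reverse complement, was found within 250 bases before the start in 4 genes. These were 4 of the 10 start sites. The same search found it in 2341 of 32851 entries of all genes (7.13%). The bases before the start are chr17:29090729-29090978 on the plus strand for Cdkn1a, and on the minus strand chr7:45466899-45467148 for Bax, chr11:40755287-40755536 for Ccng1 and chr10:117710759-117711008 for Mdm2. Capitals mark the half-sites.
Cdkn1a: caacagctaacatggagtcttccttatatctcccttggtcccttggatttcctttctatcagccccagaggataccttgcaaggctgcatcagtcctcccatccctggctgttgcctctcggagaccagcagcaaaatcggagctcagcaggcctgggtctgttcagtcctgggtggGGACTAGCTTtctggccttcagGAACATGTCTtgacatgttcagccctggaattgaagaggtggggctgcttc
Bax: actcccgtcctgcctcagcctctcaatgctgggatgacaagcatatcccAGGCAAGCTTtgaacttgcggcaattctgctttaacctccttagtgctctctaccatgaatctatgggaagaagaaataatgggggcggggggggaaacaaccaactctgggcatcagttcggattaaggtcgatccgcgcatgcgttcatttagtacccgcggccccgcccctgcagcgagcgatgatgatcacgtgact
Ccng1: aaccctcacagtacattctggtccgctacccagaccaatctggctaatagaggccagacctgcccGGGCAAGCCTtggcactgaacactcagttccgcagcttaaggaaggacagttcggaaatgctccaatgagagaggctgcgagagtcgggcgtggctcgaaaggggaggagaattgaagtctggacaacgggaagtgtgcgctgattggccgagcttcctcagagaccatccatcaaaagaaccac
Mdm2: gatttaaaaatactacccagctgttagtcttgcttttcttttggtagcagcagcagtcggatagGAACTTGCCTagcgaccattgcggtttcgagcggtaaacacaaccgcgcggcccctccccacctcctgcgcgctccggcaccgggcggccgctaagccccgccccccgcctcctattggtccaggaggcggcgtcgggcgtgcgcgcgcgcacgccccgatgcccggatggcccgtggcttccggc
Cdkn1a held 2 of them before the start shown, with first bases at -73 and -51 from that start of transcription. Its other start site, with chr17:29093519-29093768 before it, held 0. The match in Bax begins at -201, that in Ccng1 at -185 and that in Mdm2 at -186. A match is a description of letters and not a measured site, and p53 binding was not measured.

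Over all 2931 cells, Cdkn1a had a read in 1683 cells and Bax in 1720. After thinning, the share of cells with a read was 56.0% for Cdkn1a, 56.3% for Bax, 38.5% for Phlda3 and 31.5% for Mdm2. Ccng1, the cyclin G1 gene that acts in a feedback on p53, was detected in 15.9% of cells and Trp53inp1, which encodes a nuclear protein that promotes p53 activity, in 12.02%. The 3 sparse members were Eda2r, a receptor of the tumour necrosis factor family, Sesn2, a stress-induced inhibitor of mTORC1 signalling, and Gdf15, a secreted stress cytokine. Eda2r and Sesn2 were each seen in 5.27% of cells and Gdf15 in 3.87%. Detection grows with the level, the length and the efficiency of capture of a transcript, so these shares do not rank the genes by expression.

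In normal air, the difference between subtypes that stood out was in the capillaries. Car4+ capillaries, the large cells apposed to the alveolar epithelium and also called aerocytes, had more Cdkn1a and Phlda3 than Car4- capillaries of the same mouse. Cdkn1a in Car4+ capillaries was 1010 CPM in the P1 female, 4753 in the P1 male, 987 and 1004 at P7, and 3097 and 1800 at P21 (female, then male). In Car4- capillaries of the same mice it was 326, 1317, 209, 212, 930 and 883 CPM. Each of the 6 mice was higher in its Car4+ cells, while the ranges of the classes overlap across mice.

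The log2 difference of Cdkn1a was 2.06 (SE 0.21, adjusted p = 0.00056, edgeR quasi-likelihood test with the mouse as a term, 6 of 6 mice higher). Phlda3, which encodes a pleckstrin homology protein that restrains Akt, had 172 to 431 CPM in Car4+ and 48.3 to 115 CPM in Car4- capillaries. The groups of values did not overlap. Its log2 difference was 1.96 (SE 0.22, adjusted p = 0.00105 in edgeR, 6 of 6 mice higher). These were the only members called, 2 of 9, in a comparison that called 649 of 11985 genes (5.42%). The median log2 difference was 0.60 over the members and -0.27 over all genes tested. DESeq2 called the same 2 members and 17.5% of genes. Without the mouse as a term, the call of Cdkn1a was lost (adjusted p = 0.0747 in edgeR).

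Bax differed by 0.15 on the log2 scale between these classes (SE 0.25, adjusted p = 0.825 in edgeR, 95% interval -0.34 to 0.63), and Mdm2 by 0.22 (SE 0.31, adjusted p = 0.776). Bax in Car4+ capillaries was 179, 127, 121, 177, 241 and 121 CPM in the order given above, within the 116 to 254 CPM of Car4- capillaries. None of 21 tested other p53 targets, listed with the members and including Zmat3, Aen and Btg2, was called between these classes (median log2 difference 0.03), nor any of 9 tested regulators of p53 including Trp53 itself. Of the 9 tested genes of dissociation and stress, 1 was called, Jun, and it was higher in Car4+ cells, but 5 had an unadjusted p under 0.05 and the median log2 difference of the 9 was 0.59. Their part in the Cdkn1a difference was not tested.

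**Figure D1:**
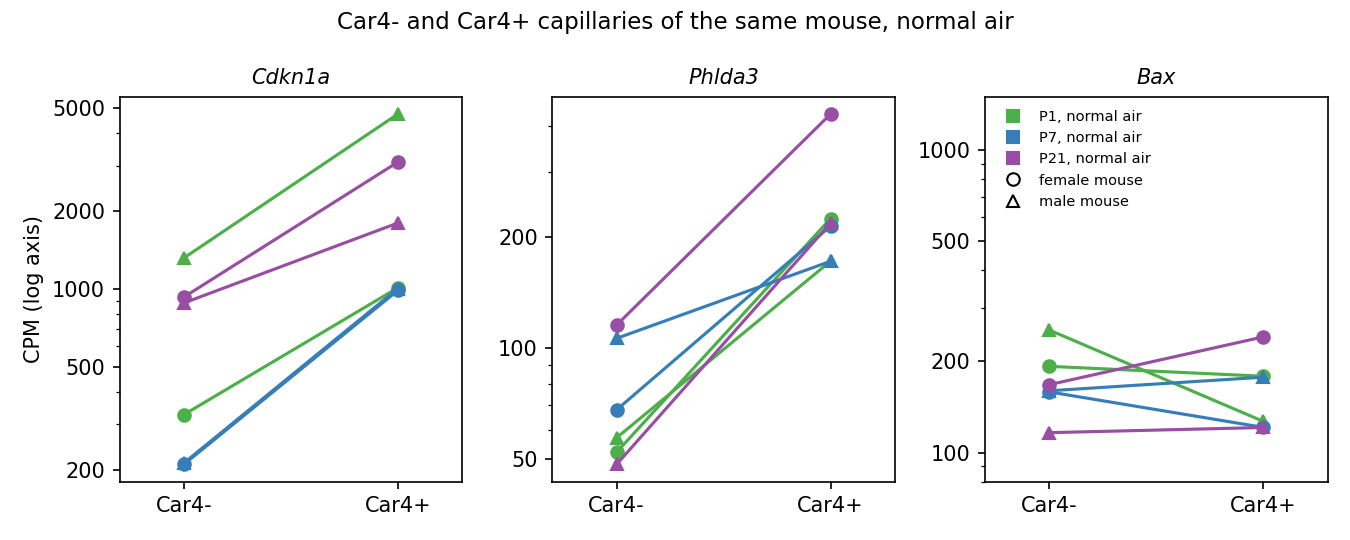
Levels of Cdkn1a, Phlda3 and Bax in CPM (log axes, 1 per gene) in the Car4- and Car4+ capillaries of the 6 normal air mice from P1 to P21. Each line joins the 2 classes of 1 mouse, colours are ages and symbols the sex; lines of Cdkn1a and Phlda3 rise in 6 of 6 mice and those of Bax go both ways.

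The single cells showed the same contrast as a share. Cdkn1a was detected in 91.5% and 100% of Car4+ capillaries at P1, in 59.5% and 70.8% at P7, and in 86.0% and 85.7% at P21. In nonproliferative Car4- capillaries the shares were 32.2%, 66.4%, 29.1%, 42.5%, 48.5% and 52.2% in the same order. Each mouse was again higher in its Car4+ cells.

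Against the nonproliferative capillaries, Cdkn1a had lower CPM in lymphatic EC and, without a call in edgeR, mostly higher CPM in proliferating cells. Proliferative EC in normal air had 391 and 287 CPM at E18.5, 1513 and 851 at P1, and 517 and 1052 at P7. The nonproliferative capillaries of the same mice had 266, 277, 326, 1317, 209 and 212 CPM, so 5 of the 6 mice were higher in their proliferating cells and the P1 male was lower. The log2 difference was 1.02 (SE 0.38, adjusted p = 0.236 in edgeR), and 0 of 7 tested members passed, with 519 of 12574 genes called (4.13%). Eda2r and Gdf15 did not pass the filter on low counts here, nor in the venous, arterial and lymphatic fits below. DESeq2 on the same sums called 11% of genes and 2 members, Cdkn1a, which was higher (adjusted p = 0.0188), and Trp53inp1, which was lower (adjusted p = 0.042). Btg2, an antiproliferative p53 target, fell by 1.02 on the log2 scale (adjusted p = 0.0308 in edgeR). Chek1, the checkpoint kinase of replicating cells, rose by 2.49 (adjusted p = 0.0292 in edgeR).

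Lymphatic EC could be compared in 3 mice, the E18.5 male and the P1 pair. Their Cdkn1a was 53.5, 151 and 252 CPM against 277, 326 and 1317 CPM in the capillaries. All 3 mice were lower in CPM in lymphatic cells, and the ranges did not overlap. The shares of cells with a Cdkn1a read did overlap. They were 26.9 to 84.6% in the lymphatic EC of these 3 mice and 29.1 to 66.4% in the capillaries of the 8 normal air mice. In the P1 male the share was higher in lymphatic EC, with 84.6% against 66.4% in its capillaries. In the P1 female it was lower, with 26.9% of lymphatic EC, while 58 of its capillaries had a read and 122 had none. The lower CPM thus did not go with a lower share in every mouse. The log2 difference was -2.06 (SE 0.36, adjusted p = 0.0274 in edgeR). It was the only one of 7 tested members called, where 504 of 12588 genes were (4.00%), and DESeq2 called it as well (adjusted p = 8.74e-05, with 16% of genes called). The call was lost without the P1 male (log2 difference -1.81, adjusted p = 0.188, with 237 of 12830 genes called) and without the mouse as a term (-2.28, adjusted p = 0.142). Fas, the death receptor, was lower by 5.08 on the log2 scale (adjusted p = 0.0455 in edgeR), and Plk2, a polo-like kinase, by 1.37 (adjusted p = 0.0301); both belong to the other p53 targets, of which 20 were tested.

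No member was called in venous EC. Their Cdkn1a was 35.7 and 112 CPM at E18.5, 594 and 1018 at P1, 325 and 167 at P7, and 1648 in the P21 female. The lowest mice were the embryonic ones. Over 7 mice the log2 difference was -0.18 (SE 0.39, adjusted p = 0.889 in edgeR, 95% interval -0.95 to 0.59). None of 7 tested members was called, against 418 of 11988 genes (3.49%), nor by DESeq2, which called 14.9% of genes. Of 20 tested other p53 targets, Btg2 was called and was higher in venous EC (log2 difference 1.19, adjusted p = 0.00425 in edgeR). Genes of dissociation and stress were higher there too, with 5 of 9 called.

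Arterial EC I had enough cells in 5 normal air mice, where Cdkn1a was 107 and 0 CPM at E18.5, 283 and 0.861 at P1 and 98.7 in the P7 female. The value of 0 is that of the male and rests on 14 cells. The log2 difference from the capillaries was -3.02 (SE 1.83, adjusted p = 0.551 in edgeR, 95% interval -6.60 to 0.56). Phlda3 was 182, 177, 188, 85.0 and 114 CPM in those arterial cells against 49.8 to 67.9 CPM in the capillaries of the same mice. The 5 arterial values all lay above the 5 capillary ones, and the log2 difference was 1.47 (SE 0.47, adjusted p = 0.233 in edgeR; adjusted p = 0.00241 in DESeq2). No member of 7 tested was called in a fit that called 18 of 11674 genes (0.154%) and whose median over all genes was -0.76, while DESeq2 called 15.9% of genes and 1 member, Phlda3.

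Over age, Cdkn1a in the nonproliferative capillaries had its higher values at P21 and in 1 of the mice at P1, but no step between ages was called. The level was 266 and 277 CPM at E18.5, 326 and 1317 at P1, 209 and 212 at P7, and 930 and 883 at P21. The 2 mice of E18.5, P7 and P21 lay close together, and the P1 male lay above all other normal air mice. Its Car4+ capillaries had the highest Cdkn1a of the normal air mice as well. The P21 mice were the next highest. The labels divide by age: at P1 the early label held 160 and 120 of these cells and at P7 162 and 114, against 44 and 2 of the late label at P7, while the late label held 268 and 265 cells at P21. Steps to P21 therefore compare different labels. Within the early label Cdkn1a was 339 and 1323 CPM at P1 and 215 and 211 at P7, and within the late label 172 CPM in the P7 female and 923 and 874 at P21. The P7 mice in normal air also belong to the contrast that chose the members.

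The log2 differences were 1.78 from E18.5 to P1 (SE 0.56, adjusted p = 0.331), -2.17 from P1 to P7 (SE 0.57, adjusted p = 0.427) and 2.22 from P7 to P21 (SE 0.57, adjusted p = 0.156), all from edgeR. None of the 9 members was called in any of these steps. Of 14967 genes the steps called 74 (0.494%), 0 (0.000%) and 40 (0.267%), and P21 against P1 called 51 (0.341%), again with no member. For the step with no call, 3 members had an unadjusted p under 0.05, and DESeq2 called 3 members and 314 genes (2.10%). The 3 members were Cdkn1a, Eda2r and Gdf15. DESeq2 also called Cdkn1a from E18.5 to P1 (adjusted p = 0.0342, 3.82% of genes) and from P7 to P21 (adjusted p = 0.00333, 4.42% of genes), and it called Eda2r and Gdf15 in P21 against P1 (5.32% of genes). Without the P1 female, edgeR called Cdkn1a in each of the 3 steps (adjusted p = 0.0108, 0.0192 and 0.0164), and without the P1 male from P7 to P21 alone (adjusted p = 0.0126). The fits without the P1 female called 59, 12 and 64 of 15879 genes in the 3 steps, and that without the P1 male 66 of 15920. The P21 against P1 difference of Cdkn1a, 0.06 on the log2 scale, was -0.73 without the P1 female and 1.62 without the P1 male.

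Mice whose CD31-sorted cells shared a run were compared on those cells alone. The P21 male had 974 CPM of Cdkn1a against 271 in the P7 male (log2 ratio 1.84), and the P21 female 941 CPM against 293 in the P1 female (1.68). The P1 and E18.5 females, also of 1 run, had 293 and 266 CPM (0.14). For P7 against P1 no pair shared a run among the CD31-sorted cells, so run and age cannot be told apart there. Genes of dissociation and stress differed with age too: their summed level in the capillaries was 2045 and 3749 CPM at P7 and 6565 and 6545 CPM at P21, and 3 of 10 (Hspa1a, Hspa1b and Atf3) were called from P7 to P21. Their part in the Cdkn1a values of P21 was not tested.

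The other members showed no common course over age. Eda2r was between 0 and 0.0313 CPM at E18.5 and P1 and 0 to 2.16 CPM at P7 and P21, and Gdf15 was 0.0365 CPM or less before P7. At P7 the Gdf15 reads of the female came mainly from 1 cell, which held 70.9% of them, and 1 cell held 99.1% in the P21 female and 100% in the P21 male. Bax stayed between 116 and 254 CPM except in the E18.5 female, at 59.1 CPM. Mdm2 was 17.8 to 42.9 CPM before P7 and 31.6 to 88.7 CPM from P7 on, which overlap.

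At P7 under hyperoxia, the contrast from which the set was drawn, levels in the nonproliferative capillaries were higher for 8 of 9 members in both mice than in both normal air mice, where 19.2% of 11962 genes were; nothing is read from that count. Cdkn1a was 209 and 212 CPM in normal air and 2339 and 3403 CPM under hyperoxia (211 ± 1.75 and 2871 ± 752, SD, n = 2 mice each), a ratio of 13.6. Bax was 159 and 160 against 557 and 736 CPM, a ratio of 4.06. Both genes were tight in normal air and apart from it in each hyperoxia mouse.

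Phlda3 was 67.9 and 106 CPM in normal air and 304 and 505 CPM under hyperoxia. Ccng1 was 29.1 and 17.2 against 119 and 65.0 CPM, and Trp53inp1 18.3 and 7.45 against 59.2 and 56.4 CPM. These 3 genes had ratios of 3.98 to 4.65. Mdm2, the negative regulator, was the only member whose groups overlapped, with 84.6 and 31.6 CPM against 110 and 69.4 CPM.

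Among the sparse members, Eda2r was 2.16 and 0 CPM in normal air and 34.4 and 46.6 CPM under hyperoxia. Sesn2 was 2.31 and 1.81 against 25.2 and 32.4 CPM, and Gdf15 5.34 and 0 against 15.01 and 40.5 CPM. Every hyperoxia mouse lay above both normal air mice for each of these 3 genes. Of the males, whose CD31-sorted cells shared 1 run, the hyperoxia one was higher for 9 of 9 members and for 50.8% of all genes, and nothing is read from that count.

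**Figure D2:**
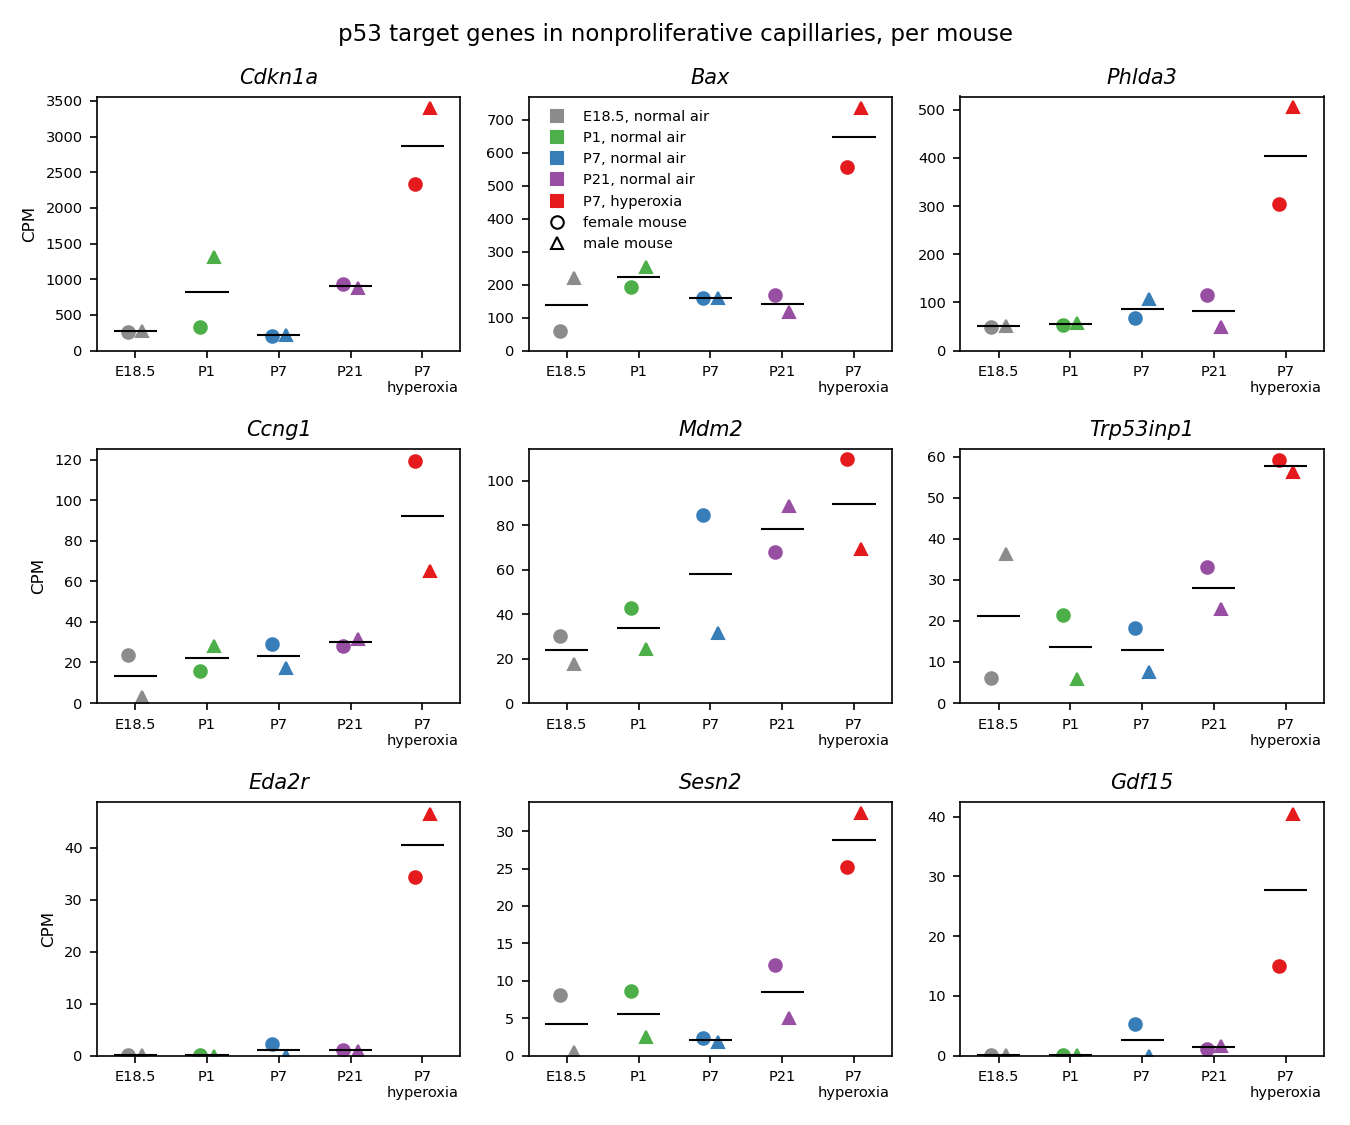
CPM of each of the 9 genes in nonproliferative capillaries, 1 point per mouse (circle female, triangle male) and a line at the mean of the 2 mice of each group. Hyperoxia mice are highest for each gene except Mdm2, and for Cdkn1a the P1 male and both P21 mice stand above the other normal air mice.

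Of 20 measured other p53 targets in the capillaries, 12 were higher and 2 lower in both hyperoxia mice, where 19.2% of 11962 genes were higher. This list too was chosen with earlier results known, so nothing is read from the count. Zmat3, an RNA-binding regulator of splicing, was 4.60 and 6.26 CPM in normal air and 80.7 and 99.5 CPM under hyperoxia. Aen, an exonuclease, was 17.3 and 25.3 against 119 and 119 CPM. Sesn1 went the other way, with 56.4 and 54.7 against 16.4 and 9.62 CPM. Trp53 was 198 and 308 CPM in normal air and 319 and 169 CPM under hyperoxia, so its groups overlapped. These 4 were picked from the list after their values were seen.

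By single cells, Cdkn1a went from 29.1% and 42.5% of the nonproliferative capillaries in normal air to 90.8% and 89.4% under hyperoxia. Eda2r went from 0.97% and 0% to 28.8% and 20.5%, and Gdf15 from 0.97% and 0% to 15.03% and 9.85%. Bax was detected in 92.2% and 88.6% and Phlda3 in 73.2% and 74.2% of hyperoxia capillaries. Cdkn1a, Bax and Phlda3 were thus seen in most of these cells, and Eda2r and Gdf15 in a minority. The 10% of capillary cells with the most Cdkn1a reads held 81.0% and 63.6% of those reads at P7 in normal air and 39.6% and 36.6% under hyperoxia. In other normal air groups that share was 42.5 to 81.4%, lowest in the P1 male.

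A capillary cell had on average 1.52 and 2.32 of the 9 members detected at P7 in normal air, and 4.44 and 3.81 under hyperoxia. The other normal air groups had 1.31 to 1.73. Cells with 5 members or more were 1.19 to 6.19% of capillaries in the 8 normal air mice and 52.3% and 31.1% in the hyperoxia mice. The median number of all genes per thinned cell was 2032 and 3236 at P7 in normal air and 3127 and 2298 under hyperoxia, and those ranges overlap. In normal air the male with the higher member count also had the higher gene count, and the part of that difference was not tested.

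In nonproliferative capillaries, most pairs of members shared cells more often than their single shares would give. Pairs of other genes were not counted, so this is not shown to be particular to the members. For a pair of members, the share of cells with both was set beside the product of the single shares, using pairs for which that product gave at least 5 cells. In hyperoxia capillaries 35 of 35 pairs were above the product in the female (median ratio 1.14) and 23 of 28 in the male (median ratio 1.08). In normal air the medians were 1.12 to 1.61 with 7 to 14 pairs a mouse. Cdkn1a with Eda2r was seen in 28.1% of female hyperoxia capillaries, where the product is 26.1%, and in 20.5% of male ones, where it is 18.3%. In venous EC under hyperoxia 19 of 22 pairs were above the product in the female (median ratio 1.05) and 9 of 18 in the male (1.01). In Car4+ capillaries 8 of 13 and 11 of 16 were (both 1.03), and the lowest ratio in the female was 1.0. A gene detected in every cell gives a ratio of exactly 1 in all its pairs, which then cannot lie above the product. Bax was detected in 100% of the venous EC of 1 hyperoxia mouse, and Phlda3 in 100% of the Car4+ capillaries of 1. The counts of these classes are therefore not set against those of the nonproliferative capillaries. In normal air the 2 pairs counted in the Car4+ capillaries of the P1 male had a ratio of exactly 1. Cdkn1a was detected in every one of those cells, which fixes the ratio of its pairs. The 1 pair counted in the proliferative EC of the P1 female was below the product (ratio 0.72).

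Capillaries with a Cdkn1a read had 3.70 of the 8 other members under hyperoxia in the female and 3.08 in the male. Those without had 1.86 and 1.50. In the proliferative EC of the P7 female in normal air the order was the other way, with 1.44 in cells with Cdkn1a and 1.90 in those without. Cells with a Cdkn1a read also had more genes of every kind, with medians of 3179 against 2698.5 in the female and 2331.5 against 2018 in the male. Only 14 capillaries of each mouse lacked Cdkn1a, and the part of cell complexity in the co-detection was not tested.

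By values alone, most members were higher under hyperoxia in Car4+ capillaries, proliferative EC and venous EC, and most were not in arterial cells. Lymphatic EC, which were few at P7, are given further below. In Car4+ capillaries 8 of 9 members were higher in both hyperoxia mice (20.9% of all genes), in proliferative EC 7 (17.4%) and in venous EC 9 (17.8%). In arterial EC, with labels I and II pooled, 2 of 8 measured members were, Bax and Phlda3 (15%). Nothing is read from these counts, since the contrast chose the members. The median log2 ratio of the members was 2.20 in nonproliferative capillaries, 1.70 in Car4+ capillaries, 1.93 in proliferative EC, 2.84 in venous EC and -0.82 in arterial EC, while that of all genes was between -0.03 and 0.18.

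In Car4+ capillaries Cdkn1a was 987 and 1004 CPM in normal air and 2787 and 4598 CPM under hyperoxia. In venous EC it was 325 and 167 against 1849 and 3658 CPM, and in proliferative EC 517 and 1052 against 3356 and 2800 CPM. The hyperoxia levels of these classes overlapped those of the nonproliferative capillaries, and the normal air levels of Car4+ and proliferative cells were higher than those of the nonproliferative ones. The ratio of means was 3.71 in Car4+ capillaries, 3.92 in proliferative EC and 11.2 in venous EC. Whether these ratios differ between classes was not tested, since the contrast chose the members.

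Gdf15 was higher under hyperoxia in proliferative EC, with 0 and 1.56 CPM in normal air and 124 and 78.2 CPM under hyperoxia. It was detected in 41.7% and 23.3% of those cells. Eda2r in venous EC had 0 reads in both normal air mice, in 0 of 44 cells, which allows a share of up to 6.82%, and 17.2 and 59.97 CPM under hyperoxia, in 14 of 53 cells. Proliferative venous EC, a label held by 5 cells of each hyperoxia mouse and by none in normal air, had Cdkn1a in 10 of 10 cells and Gdf15 in 7 of 10. Their Gdf15 was 651 and 392 CPM and their Cdkn1a 7991 and 4997 CPM.

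**Figure D3:**
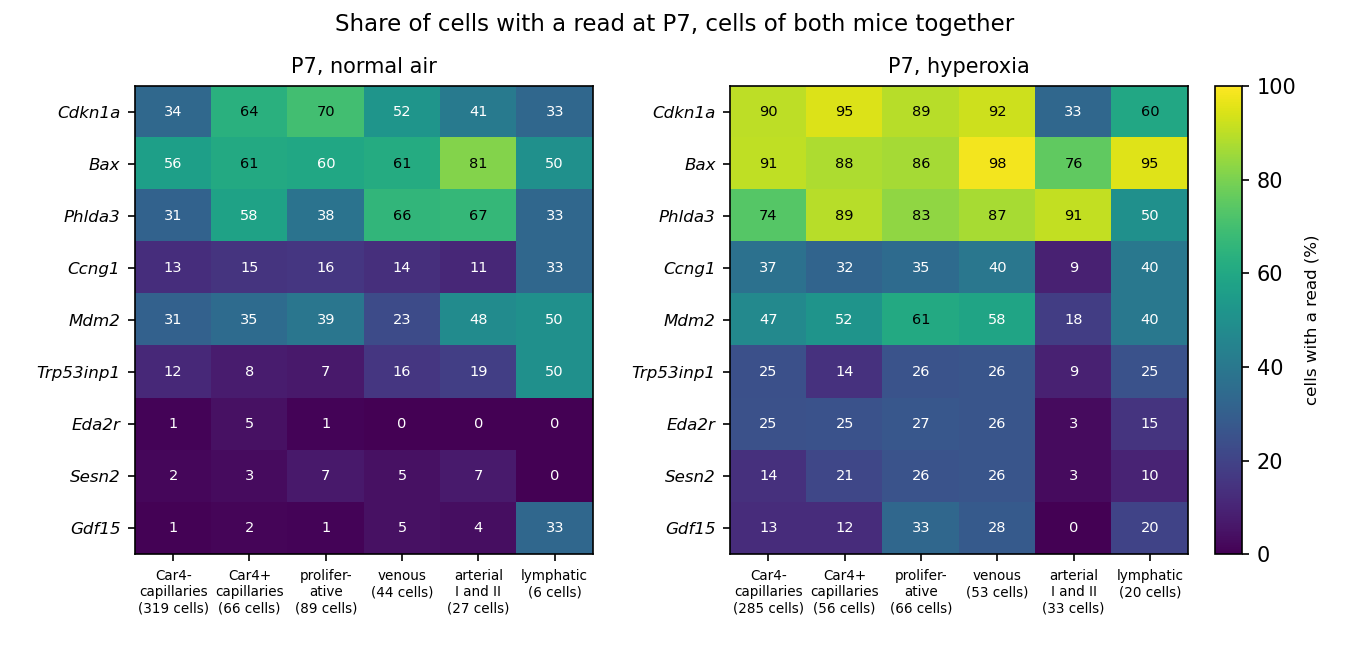
Share of cells (%) with a read of each gene at P7 in normal air (left) and under hyperoxia (right), cells of both mice together after thinning, by subtype, with the number of cells under each column. Eda2r, Sesn2 and Gdf15 are near 0 in most normal air classes and reach 15% or more in several hyperoxia classes, but not in arterial EC.

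Arterial EC were few, 17 and 10 cells in normal air and 20 and 13 under hyperoxia. Their Cdkn1a was 104 and 148 CPM in normal air and 78.8 and 273 CPM under hyperoxia, so the groups overlapped, with a ratio of means of 1.40. It was detected in 7 of 17 and 4 of 10 arterial cells of the normal air mice and in 6 of 20 and 5 of 13 of the hyperoxia mice. Eda2r was detected in 1 of 33 hyperoxia arterial cells, and Gdf15 in 0 of 33, which allows a share of up to 9.09%.

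The 2 members higher in both hyperoxia mice were Phlda3, with 106 and 248 against 249 and 478 CPM, and Bax, with 141 and 97.7 against 152 and 240 CPM. For Phlda3 the male in normal air and the female under hyperoxia were nearly level. Mdm2 was 108 and 12.9 CPM in normal air and 51.7 and 0.221 CPM under hyperoxia, and Sesn2 27.0 and 6.82 against 5.65 and 0 CPM. Of 19 measured other p53 targets, 0 were higher and 2 lower in both hyperoxia mice.

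An arterial cell had 2.59 and 3.10 members detected in normal air and 2.75 and 1.92 under hyperoxia, and 1 of 33 hyperoxia arterial cells had 5 or more. Its median gene count after thinning was 3121 and 2495 under hyperoxia, against 3127 and 2298 in nonproliferative capillaries of the same mice. Those capillaries had 4.44 and 3.81 members detected. The part of gene counts in the member counts was not tested, and the hyperoxia contrast chose the members. The share of arterial EC II among them was 1 of 17 and 6 of 10 cells in normal air and 5 of 20 and 4 of 13 under hyperoxia. In the male of normal air the summed genes of dissociation and stress were 13129 CPM, against 1637 to 3595 CPM in the other arterial sums of P7; the part of either was not tested.

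**Figure D4:**
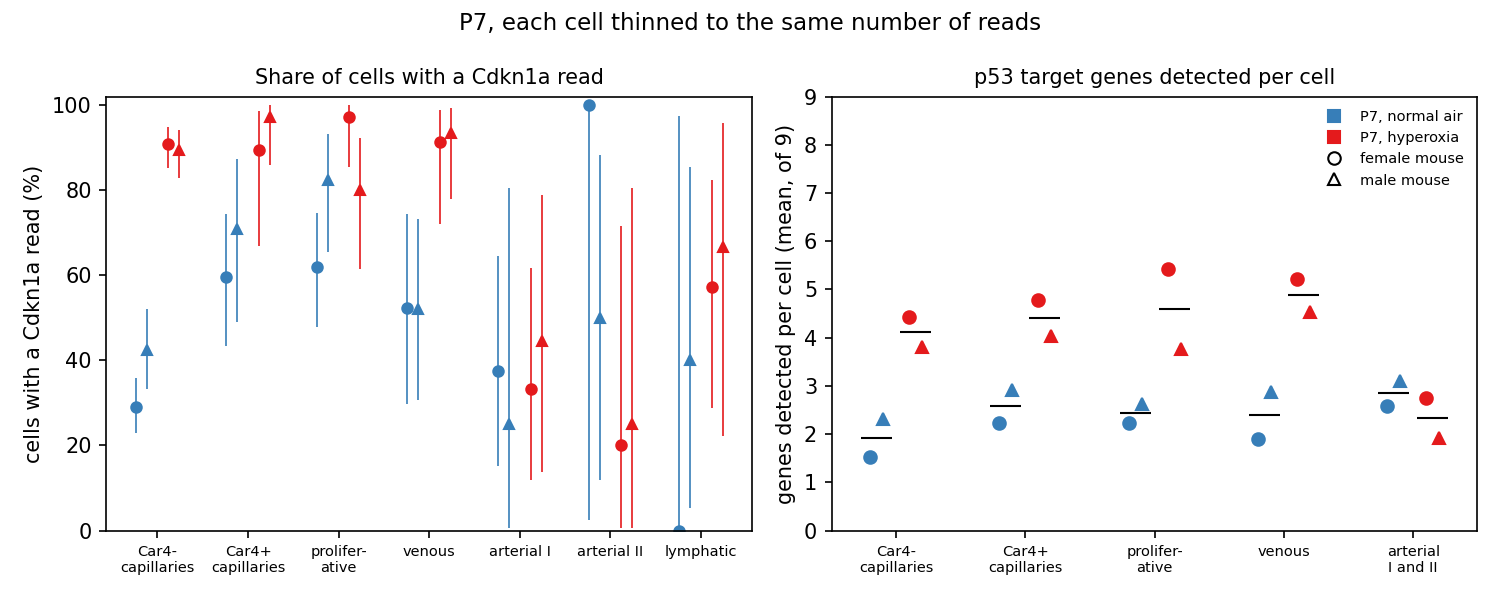
Left, share of cells (%) with a Cdkn1a read at P7 by subtype, 1 point per mouse with its 95% Clopper-Pearson interval; right, mean number of the 9 genes detected per cell, with a line at the mean of the 2 mice. Hyperoxia points lie above normal air points in capillary and venous cells in both panels. For arterial cells the points overlap on the right. On the left the intervals overlap for both arterial labels and for proliferative cells, and between some mice for Car4+ capillaries and venous cells too.

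Lymphatic EC at P7 were 1 and 5 cells in normal air and 14 and 6 under hyperoxia. Their Cdkn1a was 0 and 61.4 CPM in normal air and 1025 and 868 CPM under hyperoxia. It was detected in 0 of 1 and 2 of 5 cells of the normal air mice and in 8 of 14 and 4 of 6 cells of the hyperoxia mice. Gdf15 in lymphatic EC of normal air had 54.3 CPM in the E18.5 male, 28.8 in the P1 male and 15.6 in the P7 male. Those mice had 10, 13 and 5 lymphatic EC, so few cells carry these levels. After thinning, Gdf15 was detected in at most 15.4% of these cells in the 3 normal air mice with at least 8 of them. It had 0 reads in the other 5 normal air mice, among them the P1 female with 26 cells, and 94.6 and 0 CPM under hyperoxia.

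Across 36 sums of 1 class in 1 normal air mouse, the genes most like the members (Pearson r of log2(CPM + 1) with the mean z score of the 9, among 4152 genes with a mean of at least 50 CPM) were Fibin (0.64), Atp13a2 (0.62), Ifitm10 (0.62), Wars (0.62) and Pard6g (0.61). Fibin is a marker of Car4+ capillaries. Across all 47 sums they were Hsd17b12 (0.62), Map3k20 (0.61), Apln (0.60), Ephx1 (0.59) and Lmna (0.59). The members' own r with that mean, which contains them, was 0.29 (Bax) to 0.68 (Eda2r) in normal air and 0.58 (Mdm2) to 0.91 (Eda2r) over all sums. The sums of a mouse share its run and depth, so these are descriptions.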

How the data were processed

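Single cells of mouse distal lung were sorted and sequenced by a plate-based Tn5 protocol, per the labels' protocols. The values are whole read counts of each gene in each cell, which the authors deposited without scaling. Reads were processed with STAR 2.5.2b and HTSeq 0.10, per the submitters' processing notes, which name build GRCh38, a human build, for these mouse cells; the annotation and the strand setting are not given in the sources used here. Every count column was matched to a cell.

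The members and the gene lists were chosen with earlier results of these data known. The named genes were all 9 members, other p53 genes called (at most 4 per comparison, the largest changes) and the 5 most similar genes. Zmat3, Aen, Sesn1 and Trp53 were named outside this rule, after their values were seen. Cell type markers and genes of dissociation and stress were named as well. Gene positions are from GENCODE on GRCm38 and promoters from RefSeq on GRCm38.p6.

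Reads were summed per mouse and class (at least 8 cells), and tested with edgeR 4.0.16 (R 4.3.3, TMM, filterByExpr, quasi-likelihood F test), Benjamini-Hochberg adjusted over all genes tested and called under 0.05. Subtype fits had the mouse as a term; age fits held all 5 groups without a block. Fits of the difference in hyperoxia effect between classes are not reported, since that contrast chose the members. In the Car4+ fit, sums of the same mouse had correlations of 0.063 to 0.213 around their class means. No baseline from different mice was computed, and the cause was not tested. Alternatives were DESeq2 1.42.0, limma 3.58.1 on mean CPM of cells, RLE normalization, no filter, CD31-gate cells, thinned cells, a minimum of 15 cells, another block and each mouse left out. The fits were tested on simulated data. Thinning left out 11 cells with fewer than 50000 reads; 95% intervals of shares are Clopper-Pearson and cover counting error, those of log2 differences are 1.96 SE of the fit either way, and a count of 0 allows 3. Total reads per mouse were 56564316 to 331392982.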

Additional observations from a re-analysis of the deposited data

Results flagged for a closer look

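Sesn2 was lower under hyperoxia in arterial EC, labels I and II pooled, with both mice below both normal air mice and a ratio of 0.167, and higher in both hyperoxia mice in nonproliferative capillaries, Car4+ capillaries, proliferative EC and venous EC. That the directions differ between classes was not tested. The arterial values rest on 472 reads in normal air and 68 under hyperoxia, and on few cells. After thinning, Sesn2 was detected in 0% and 5.0% of the arterial cells of the 2 hyperoxia mice. No normal air mouse of any age had it in more than 12.5% of its arterial cells. Sesn2 was also chosen from the hyperoxia contrast.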

How the results depend on the processing

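Over the alternatives, 196 of the values that answer a comparison kept their count or level and 18 moved. A count was taken as kept within a set factor of the main one. A share of cells, or members per cell, was taken as kept within 1 SD of the mice. With 1 of 2 mice of a group left out, a share or members per cell cannot move by that rule. The 196 therefore include alternatives that could only be kept. With DESeq2, the members called were 2 in proliferative EC, 1 in arterial EC I, 1, 3, 1 and 2 in P1 against E18.5, P7 against P1, P21 against P7 and P21 against P1, where edgeR called 0; over all genes DESeq2 called 314 to 2098 in a fit and edgeR 0 to 649. Without the replicate block of the mouse, Car4+ against Car4- capillaries gave 1 member in place of 2 and lymphatic EC 0 in place of 1, with 464 and 576 genes called. A replicate block of the sex changed no member call in the age fits. Leaving out 1 mouse gave 0 to 2 members in lymphatic EC, where 237 to 763 genes were called, and 0 to 1 in each of the first 3 age steps, where 28 to 68, 0 to 12 and 5 to 66 genes were.

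Cdkn1a in venous EC changed sign to 0.24 without the replicate block and 0.27 at a minimum of 15 cells, and lay between -0.40 and 0.16 with 1 mouse left out. Its P21 against P1 difference was -0.73 to 1.62 with 1 mouse left out. None of these passed the threshold. Without thinning, members per cell were 4.68 in hyperoxia capillaries (4.12 thinned) and 3.28 in arterial EC of normal air at P7 (2.84 thinned); the Cdkn1a share of the latter was 35.6% at 5 reads or more and 38.8% in CD31-gate cells (40.6% otherwise). With 2 mice a group and as few as 10 arterial cells in a sum, small differences were not detectable. The causes were not tested.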
